A study of Homo sapiens with 6 samples.

Results

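The transcription factors *FOXM1* and *MYBL2*, the 3 genes of the retinoblastoma (RB) family and the 5 genes of the MuvB core complex were examined in MDA-MB-453, a HER2+ line of breast cancer cells, after *DUSP6* was silenced with siRNA. The members were taken by gene symbol, and all 10 were found among the 22807 genes of the table. mRNA was sequenced in 6 libraries, 3 from cells given *DUSP6* siRNA and 3 from cells given scrambled siRNA. Both groups are transfected cells of the same line, so *DUSP6* was lowered and not deleted, and by the study's description the libraries of a group were made with different siRNAs or scrambled controls. The labels do not say which siRNA went into which library or whether cultures were otherwise independent, so the p-values measure the spread between these libraries, in which siRNA and culture cannot be told apart.

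Cells enter S phase when cyclin-dependent kinases phosphorylate the RB proteins and free the E2F factors, which then switch on genes for DNA replication. In resting cells the RB relatives p107 and p130 join E2F4, DP1 and the MuvB core into the DREAM complex, which silences cell cycle genes. When cells cycle, the same MuvB core leaves the pocket proteins, takes up B-MYB and later FOXM1, and switches on the genes for mitosis. *FOXM1*, *MYBL2* and *RBL1* are themselves known E2F targets, whereas *RB1* and *RBL2* are regarded as expressed throughout the cycle.

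Sequencing depth was between 45546981 and 85729785 reads per library, and every member was covered by at least 501 reads in every library. Counting error was not small beside the spread between libraries for every member. *LIN52* had 739 reads in its lowest library, and its coefficient of variation with *DUSP6* siRNA was only 2.21%. A normalized value is the number of reads of a gene relative to the scaled library size, as deposited. *DUSP6* itself averaged 144 ± 55.7 (SD, n = 3) in scrambled and 33.0 ± 7.68 (SD, n = 3) in *DUSP6* siRNA libraries, which differ by -2.05 on the log2 scale (limma adjusted p = 3.09e-04). The markers of the line were present in all libraries, but 5 of 7 were lower and 1 was higher after *DUSP6* siRNA, and their summed value went from between 3352 and 4405 to between 2456 and 2600. Among 9 markers of stroma, blood and endothelium, 7 were in the table. *CD68* lay between 3.41 and 5.47, and *COL1A1* carried the rise of their sum from between 86.3 and 111 to between 168 and 197. *PTPRC*, *PECAM1*, *VWF*, *COL1A2* and *PDGFRB* stayed at 0.268 or below in every library. The part that these shifts play in the results was not tested.

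Differences were tested with limma on log2(value + 1), a scale that slightly shrinks the fold change of genes with low values, over the 12862 genes that averaged 1 or more, and a gene was called at a Benjamini-Hochberg adjusted p under 0.05. Of the 10 members, 6 were lower after *DUSP6* siRNA, 1 was higher and 3 were not called. Over all genes tested, 24.7% were called lower, 19.7% higher and 44.5% in either direction. The members' median log2 fold change was -0.36, and that of all genes tested was -0.01. The activators *FOXM1* and *MYBL2* fell to less than 50% of their scrambled level, *RBL1*, *LIN9*, *LIN52* and *LIN54* fell less, and *LIN37* rose. *RB1*, *RBL2* and *RBBP4* were not called, although *RB1* was called higher when the values were rescaled by the median of ratios or by quantiles.

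**Figure D1:**
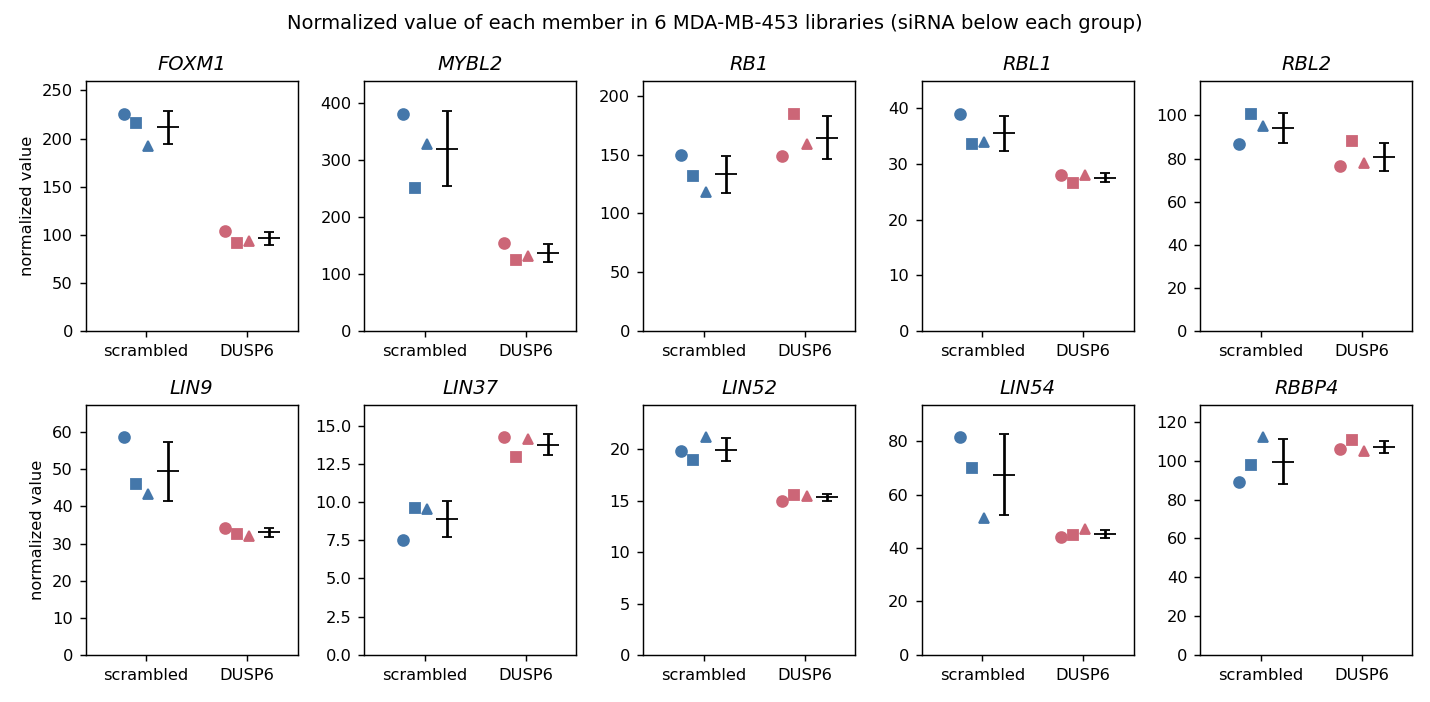
Normalized value (y axis, linear scale from 0) of each member in the scrambled siRNA and *DUSP6* siRNA libraries. Circles, squares and triangles are replicates 1, 2 and 3, and the bar beside them is the mean ± SD of 3 libraries. The groups are apart for *FOXM1*, *MYBL2*, *RBL1*, *LIN9*, *LIN37*, *LIN52* and *LIN54* and overlap for *RB1*, *RBL2* and *RBBP4*.

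Sequences before the transcription start are shown for 4 of the 6 members that fell, because E2F and MuvB act through short letters there. The windows of these 4 held a match to the E2F letters, the E2F core or a CHR, and that of *MYBL2* to the E2F core alone. *LIN9*, which also fell, held none of the letters searched in the window before its most upstream listed start, while that of another of its 3 listed starts held a CHR and the E2F core. The window of the other listed start of *LIN37*, which rose, held both as well. RefSeq windows on GRCh38.p14 were at hand for 9 of the 10 members, all but *FOXM1*. The 250 bases before the most upstream listed start were searched on both strands. The letters were TTTGGCGC, TTTCCCGC, TTTGCCGC and TTTCGCGC (the E2F letters), GGCGGGA (the E2F core, which can overlap the former), TTTGAA and TTCGAA (the cell cycle genes homology region, CHR, read by LIN54), CCAAT (bound by NF-Y) and TAAACA (forkhead). GGCGGGA was added after the windows had been read. The stretches below read 5′ to 3′ on the strand of the gene, with matches in capitals. The one from *MYBL2* lies at chr20:43667064-43667093 on the plus strand, that from *RBL1* at chr20:37095998-37096097 on the minus strand, that from *LIN52* at chr14:74084856-74084955 on the plus strand, and that from *LIN54* at chr4:83010865-83010964 on the minus strand.
MYBL2: ccgacgcgcttGGCGGGAgatagaaaagtg
RBL1: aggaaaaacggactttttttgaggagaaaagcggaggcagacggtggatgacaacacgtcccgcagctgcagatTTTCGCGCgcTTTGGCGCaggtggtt
LIN52: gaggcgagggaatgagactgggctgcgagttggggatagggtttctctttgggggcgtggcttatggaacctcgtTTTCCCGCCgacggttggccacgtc
LIN54: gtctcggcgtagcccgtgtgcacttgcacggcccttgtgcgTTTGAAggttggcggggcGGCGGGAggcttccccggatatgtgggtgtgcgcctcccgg

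The *RBL1* window held the E2F letters at 2 places, beginning 26 and 16 bases before the start. It also held the E2F core on the other strand, beginning 210 bases before the start and outside the stretch shown. *LIN52* held the E2F letters once, beginning 25 bases before the start, and there the E2F core on the other strand overlaps them. In *LIN54* a CHR began 89 bases and an E2F core 71 bases before the start. *MYBL2* held the E2F core alone, 39 bases before the listed start, in a stretch that GENCODE counts as part of its first exon. The whole window of *RBL1* lies within exons that GENCODE places outside *RBL1*. In the window of *RBL2* the forkhead letters occurred at 2 places and no E2F letters were found. Of the 9 members with a window, 2 held the E2F letters, 5 the E2F core (the 4 shown and *RBBP4*), 3 CCAAT, 1 a CHR and 1 the forkhead letters. Over the 10127 tested genes with a window, 4.59% held the E2F letters, 22.4% the E2F core, 35.8% CCAAT, 9.64% a CHR and 5.93% the forkhead letters. Over all 27305 genes with a window these shares were 2.78%, 13.6%, 33.0%, 14.6% and 11.1%. Of the 9 listed starts, only those of *RBL1* and *LIN52* are at the GENCODE start of the gene. The other 7 lie inside the gene as GENCODE draws it, and for *RBL2*, *LIN54* and *RB1* so does the whole window, the forkhead letters of *RBL2* included. A match describes the letters and says nothing of binding.

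*FOXM1* (Entrez gene 2305, chr12:2857680-2877174, minus strand of GRCh38) encodes a forkhead factor that drives genes of the G2 phase and mitosis. Its value was 226, 217 and 193 in the 3 scrambled libraries, by replicate number, and then 104, 91.4 and 94.0 with *DUSP6* siRNA. All *DUSP6* siRNA libraries were thus well below the lowest scrambled library, and the level after *DUSP6* siRNA was 45.6% of the scrambled mean. The log2 fold change was -1.13, with a standard error of 0.10 (limma adjusted p = 4.68e-05), with a 95% interval from -1.34 to -0.91. Of the exon sequence of *FOXM1*, 15.9% is shared with *ITFG2* on the opposite strand, whose own value was at most 12.6 with scrambled and between 15.1 and 16.1 with *DUSP6* siRNA, so reads in the shared part leave the value of *FOXM1* uncertain.

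*MYBL2* (Entrez gene 4605, chr20:43667019-43716495, plus strand) encodes B-MYB, the MYB protein that binds the MuvB core in cycling cells. Its value was 381, 251 and 328 across the scrambled replicates, by number, compared with 154, 124 and 132 across those given *DUSP6* siRNA. The scrambled libraries differed among themselves by a factor of 1.52, yet the lowest of them was above the highest *DUSP6* siRNA library. The log2 fold change came to -1.21 ± 0.15 (standard error, limma adjusted p = 3.65e-04), with the mean at 42.8% of the scrambled one. *FOXM1* and *MYBL2* ranked 410 and 341 from the bottom among the 12862 fold changes, and a fold change of -1 or below was seen in 4.23% of all genes tested and in these 2 of the 10 members. The log2 ratio of *FOXM1* to *MYBL2* within a library averaged -0.58 ± 0.32 (SD, n = 3) with scrambled and -0.50 ± 0.06 (SD, n = 3) with *DUSP6* siRNA, and the groups overlapped (two-sided exact permutation test, p = 0.8, adjusted over 5 ratios 0.8). The difference between the groups was 0.08, and it lay between -0.02 and 0.26 when a library was left out, with a negative sign without scrambled siRNA replicate 1 or 3.

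Of the 3 RB family genes, *RBL1* was called lower and *RB1* and *RBL2* were not called. *RB1* (Entrez gene 5925, chr13:48303744-48599436, plus strand) encodes the founding pocket protein, which holds the activating E2F factors in check. It had values of 149, 132 and 119 for the scrambled group, by replicate number, and 149, 185 and 159 for the *DUSP6* siRNA group. The lowest *DUSP6* siRNA library lay just under the highest scrambled one, so the groups overlapped. The log2 fold change was 0.30 (95% interval from 0.04 to 0.56, limma adjusted p = 0.0625) and was not called. It was called higher at 0.32 (adjusted p = 0.0489) after the median of ratios, at 0.46 (adjusted p = 0.00939) after quantile normalization, at 0.34 (adjusted p = 0.0441) by edgeR on the recovered reads, a test that called 21.5% of all genes higher, and at 0.39 (adjusted p = 0.0322) without scrambled siRNA replicate 1.

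*RBL1* (Entrez gene 5933, chr20:36996349-37095997, minus strand) encodes p107, the pocket protein that rises in cycling cells. Its value was 39.0, 33.5 and 33.9 in the 3 scrambled libraries, by replicate number, and then 28.0, 26.6 and 28.1 with *DUSP6* siRNA. The groups were apart, and the log2 fold change was -0.35, with a standard error of 0.10 (limma adjusted p = 0.0186). The call was lost when any *DUSP6* siRNA library was left out, with adjusted p-values of up to 0.0729 and fold changes that stayed between -0.39 and -0.28 over all 6 such fits.

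*RBL2* (Entrez gene 5934, chr16:53433977-53491648, plus strand) encodes p130, the pocket protein typical of resting cells and of the DREAM complex. It stood at 86.6, 101 and 95.1 across the scrambled replicates, by number, compared with 76.4, 88.0 and 77.8 across those given *DUSP6* siRNA. *DUSP6* siRNA replicate 2 lay above scrambled siRNA replicate 1, and the log2 fold change of -0.22 (95% interval from -0.44 to 0.00, limma adjusted p = 0.0971) was not called. Exons of *AKTIP* on the opposite strand cover 7.51% of those of *RBL2*. The value of *AKTIP* was between 52.8 and 62.7 with scrambled and between 30.2 and 31.2 with *DUSP6* siRNA, so the value of *RBL2* is uncertain.

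Ratios within a library do not depend on the scaling between libraries. The log2 ratio of *MYBL2* to *RBL2* was 2.14, 1.32 and 1.78 for the scrambled group, by replicate number, and 1.01, 0.50 and 0.76 for the *DUSP6* siRNA group. The groups were apart with a difference of -0.99 (exact two-sided permutation p = 0.1, the lowest possible with 3 libraries against 3, or 0.25 after Benjamini-Hochberg adjustment over the 5 ratios). The log2 ratio of *RB1* to *RBL2* went the other way, from 0.50 ± 0.25 (SD, n = 3) to 1.02 ± 0.05 (SD, n = 3), and was higher in every *DUSP6* siRNA library than in any scrambled one (exact permutation p = 0.1, adjusted 0.25). The ratio of *RBL1* to *RBL2* differed by only -0.14 and its groups overlapped (exact permutation p = 0.6, adjusted 0.75). These 5 ratios were computed as 1 family, and none can pass a threshold of 0.05 with 3 libraries in a group.

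**Figure D2:**
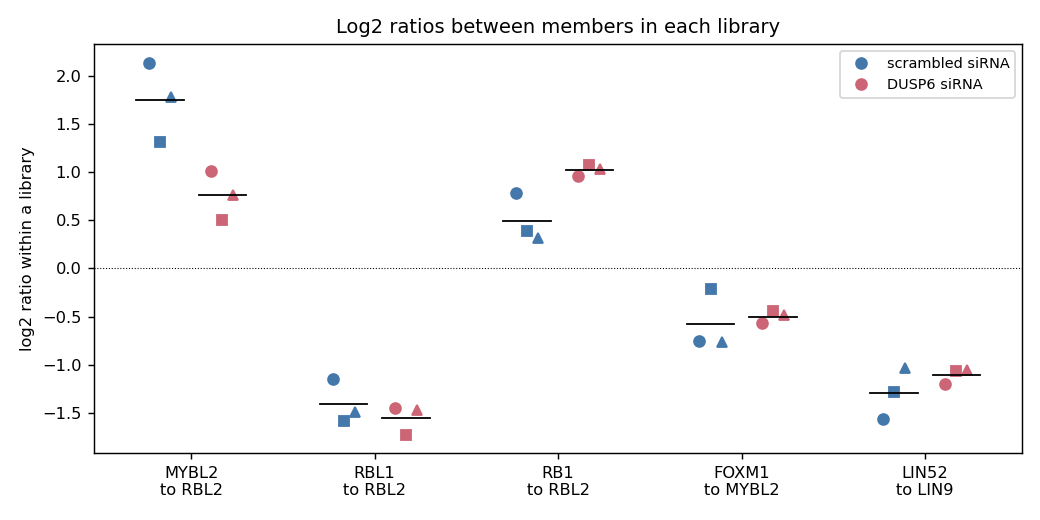
Log2 ratio between a pair of members (y axis) within each library, for 5 pairs. Circles, squares and triangles are replicates 1, 2 and 3 and the lines are group means. The *MYBL2* to *RBL2* ratio is lower and the *RB1* to *RBL2* ratio higher in all 3 *DUSP6* siRNA libraries, whereas the other 3 pairs overlap.

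Of the 5 MuvB core genes, 3 fell, 1 rose and 1 was not called. *LIN9* (Entrez gene 286826, chr1:226231149-226309869, minus strand) encodes the scaffold subunit on which B-MYB docks. Its value was 58.6, 46.2 and 43.5 in the 3 scrambled libraries, by replicate number, and then 34.3, 32.6 and 32.1 with *DUSP6* siRNA. The *DUSP6* siRNA libraries were close together and all below the scrambled ones, and the log2 fold change came to -0.56 ± 0.12 (standard error, limma adjusted p = 0.00579).

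*LIN54* (Entrez gene 132660, chr4:82909973-83012926, minus strand) encodes the subunit that reads the CHR. It had values of 81.4, 69.8 and 51.2 across the scrambled replicates, by number, compared with 44.2, 44.9 and 47.0 across those given *DUSP6* siRNA. The scrambled libraries spread over a factor of 1.59, the widest among the members, and the *DUSP6* siRNA libraries over 1.07. The groups were still apart and the log2 fold change was -0.54, with a standard error of 0.15 (limma adjusted p = 0.0193). Leaving out scrambled siRNA replicate 3 gave -0.72 and leaving out scrambled siRNA replicate 1 gave -0.39, and the gene lost its call without scrambled siRNA replicate 1 or 2 and without *DUSP6* siRNA replicate 1 or 2, at adjusted p-values of up to 0.0705.

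*LIN52* (Entrez gene 91750, chr14:74084956-74201493, plus strand) encodes the small subunit that DYRK1A phosphorylates to join the MuvB core to p107 or p130. Values were 19.8, 18.9 and 21.2 for the scrambled group, by replicate number, and 14.9, 15.6 and 15.5 for the *DUSP6* siRNA group. Both groups were tight and did not overlap, and the log2 fold change came to -0.36 ± 0.10 (standard error, limma adjusted p = 0.0160). Without *DUSP6* siRNA replicate 1 or 3 the call was lost, at adjusted p-values of 0.0746 and 0.0677. The log2 ratio of *LIN52* to *LIN9* was -1.30 ± 0.26 (SD, n = 3) with scrambled and -1.11 ± 0.08 (SD, n = 3) with *DUSP6* siRNA, and the groups overlapped (exact permutation p = 0.4, adjusted 0.667).

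*LIN37* (Entrez gene 55957, chr19:35748361-35754519, plus strand) encodes a subunit needed for repression by DREAM. It was the only member called higher in the limma fit of all 6 libraries. Its value was 7.54, 9.60 and 9.56 in the 3 scrambled libraries, by replicate number, and then 14.2, 12.9 and 14.1 with *DUSP6* siRNA, so that all *DUSP6* siRNA libraries lay above the scrambled ones. The log2 fold change was 0.58, with a standard error of 0.12 (limma adjusted p = 0.00469), and it kept its sign and call under all 14 alternatives, between 0.48 and 0.66.

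*RBBP4* (Entrez gene 5928, chr1:32651142-32686211, plus strand) encodes a histone-binding WD40 protein that also serves several chromatin complexes. It was 89.1, 97.7 and 112 across the scrambled replicates, by number, compared with 106, 111 and 105 across those given *DUSP6* siRNA. The groups overlapped, and the log2 fold change of 0.11 (95% interval from -0.12 to 0.34, limma adjusted p = 0.396) was not called. Exons of *SYNC* cover 22.8% of its exons on the opposite strand, but *SYNC* was at 0.115 or below in every library.

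**Figure D3:**
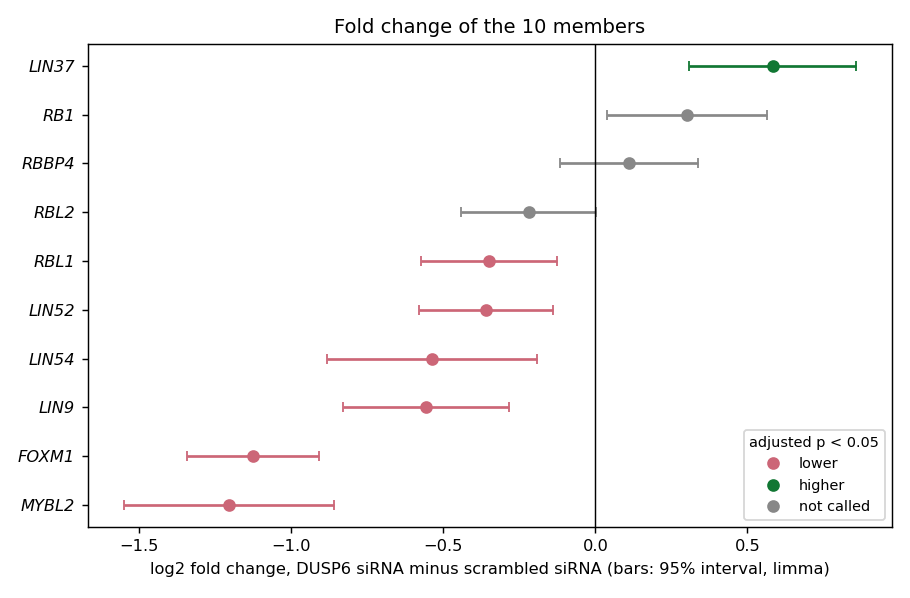
Log2 fold change of each member (x axis, *DUSP6* siRNA minus scrambled siRNA), with 95% intervals from limma over 3 libraries a group. Red stands for genes called lower, green for those called higher and grey for those not called. *MYBL2* (-1.21) and *FOXM1* (-1.13) lie apart from the other members that fell (-0.56 to -0.35), and *LIN37* (0.58) is on the other side of 0.

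In all, the groups did not overlap for the 6 members called lower and for *LIN37*. Of all genes tested, 31.1% were lower and 26.7% higher without overlap. For 9 of the 10 members the SD was larger with scrambled than with *DUSP6* siRNA. Over all genes tested, scrambled libraries also correlated less with each other (0.987 to 0.990) than *DUSP6* siRNA libraries did (0.995 to 0.998). How many of all genes had a larger SD with scrambled siRNA was not counted, so the count of 9 cannot be called particular to the members. Scrambled siRNA replicate 1 had the highest value of *FOXM1*, *MYBL2*, *RB1*, *RBL1*, *LIN9* and *LIN54* and the lowest of *RBL2*, *LIN37* and *RBBP4* in its group. Among the *DUSP6* siRNA libraries, replicate 1 had the smallest decrease of *FOXM1* and *MYBL2*, at 1.02 and 1.03 below the scrambled mean on the log2(value + 1) scale, and replicate 2 the largest, at 1.20 and 1.34.

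**Figure D4:**
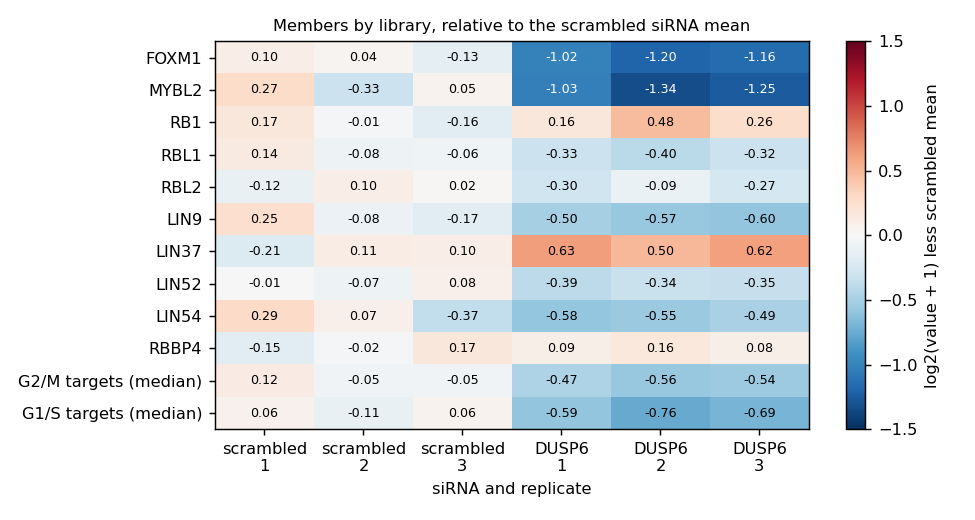
Difference of log2(value + 1) from the mean of the scrambled libraries, for each member (rows) in each library (columns), with blue for lower and red for higher. The bottom rows give the median over 42 G2/M targets and 40 G1/S targets. *FOXM1* and *MYBL2* are lower by 1.02 to 1.34 in the *DUSP6* siRNA libraries, *LIN37* is higher by 0.50 to 0.63, and both target lists are lower in each *DUSP6* siRNA library.

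Levels were compared between members per kilobase of the canonical GENCODE transcript. With scrambled siRNA the order by level was *MYBL2*, *FOXM1*, *RB1*, *RBL2*, *LIN9*, *RBBP4*, *LIN54*, *LIN37*, *LIN52* and *RBL1*, from 120 ± 24.5 to 6.24 ± 0.54 per kilobase (SD, n = 3). The neighbors *RBL2* and *LIN9*, *RBBP4* and *LIN54*, *LIN54* and *LIN37*, and *LIN52* and *RBL1* overlapped between libraries. After *DUSP6* siRNA *RB1* stood above *FOXM1*, at a level of 34.5 ± 3.87 against 27.2 ± 1.85 per kilobase (SD, n = 3), and this order of the 2 genes also held with the length of all exons. The level of *LIN37* rose above those of *LIN9*, *LIN54* and *RBBP4*, to 14.7 ± 0.76 per kilobase, but it overlapped that of *RBBP4*. With the length of all exons, an alternative chosen after the data had been seen, *LIN37* was at 4.88 per kilobase and below these 3 genes, so its place in the order depends on the transcript that the cells use.

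The partners and kinases that decide between DREAM and the activating complexes were described as a list of 14 genes, of which 13 were tested, 3 were lower and 3 higher, with a median log2 fold change of 0.02. The share called lower, 23.1%, was near the 24.7% of all genes tested, so the counts say nothing particular of the list, and its genes are given one by one. Among the E2F and DP partners, *E2F5*, a repressive E2F, rose (log2 fold change 0.60, limma adjusted p = 0.0273), from 12.9, 11.9 and 20.41 to 20.42, 25.4 and 22.8. The highest scrambled library of *E2F5* lay just under its lowest *DUSP6* siRNA library. *E2F4*, the main E2F of DREAM, was at 89.5 ± 13.5 and 86.2 ± 5.00 (SD, n = 3) and was not called. The DP genes *TFDP1* (log2 fold change -0.26, adjusted p = 0.0963) and *TFDP2* (-0.22, adjusted p = 0.202) were not called either.

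Of the DYRK kinases, *DYRK1A*, whose product phosphorylates LIN52, had 110 ± 11.8 and 111 ± 2.69 (SD, n = 3) and a log2 fold change of 0.02 (95% interval from -0.20 to 0.24). Its relative *DYRK1B*, linked to quiescence, rose by 0.91 on the log2 scale (limma adjusted p = 0.0159), with means of 11.7 ± 4.42 and 21.8 ± 2.27 (SD, n = 3). *CDKN1A*, which encodes the CDK inhibitor p21, rose by 0.83 on the log2 scale (limma adjusted p = 0.00229), from between 40.8 and 58.9 in scrambled to between 81.8 and 104 in *DUSP6* siRNA libraries. The kinases and cyclins that act on the pocket proteins fell in part. Changes on the log2 scale were -0.73 for *CDK2* (limma adjusted p = 3.43e-04), -0.61 for *CCND1* (adjusted p = 0.00121) and -0.54 for *CCND3* (adjusted p = 0.0112). *CDK4* (0.17, adjusted p = 0.371), *CDK6* (0.35, adjusted p = 0.132) and *CDKN1B* (0.20, adjusted p = 0.137) were not called. *CCND2* was under the filter, at 0 in every scrambled library and at up to 0.355 after *DUSP6* siRNA. Without *DUSP6* siRNA replicate 2, 1 gene of the list instead of 3 was called higher.

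Genes that MuvB with B-MYB and FOXM1 is known to activate in G2 and mitosis were taken as a list of 42 genes, all tested. This list and those below were chosen with earlier results of these data known, so their counts are not an independent test. Of these, 34 (81.0%) were lower and 0 higher by limma, which called 24.7% of all genes tested lower and 19.7% higher. At an unadjusted p under 0.05, 0 were higher. The edgeR test called 34 lower and 0 higher, beside 23.1% lower and 21.5% higher over all genes tested. The median log2 fold change was -0.53. The 4 largest changes were in the cyclin *CCNB2* (log2 fold change -1.07, limma adjusted p = 5.17e-05), the spindle checkpoint kinase *TTK* (-0.97, adjusted p = 0.00328), the mitotic kinesin *KIF20A* (-0.95, adjusted p = 2.75e-04) and the phosphatase *CDC25B* (-0.91, adjusted p = 1.05e-04). The value of *CCNB2* was 94.9, 90.6 and 87.7 for the scrambled group, by replicate number, and 47.2, 41.1 and 40.6 for the *DUSP6* siRNA group. No member of the list fell by as much as *FOXM1* or *MYBL2*. The 8 genes not called were *CDC20*, *KIF11*, *DLGAP5*, *CCNB1*, *SGO1*, *UBE2S*, *AURKB* and *CKS2*, named after their values were seen. Their log2 fold changes ran from -0.42 for *SGO1* (limma adjusted p = 0.0601) to 0.01 for *CKS2* (adjusted p = 0.955). That of *CCNB1* was -0.23 (adjusted p = 0.0534).

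Genes of the G1/S transition that E2F and the RB family govern formed a list of 40, all tested. Here 36 were lower and 0 higher by limma, 0 were higher at an unadjusted p under 0.05, and edgeR called 35 lower and 0 higher, and the median change was -0.68 on the log2 scale. Among the 4 largest changes were those in the ribonucleotide reductase subunit *RRM2* (log2 fold change -1.60, limma adjusted p = 2.56e-04) and the activating factors *E2F2* (-1.34, adjusted p = 4.12e-04) and *E2F1* (-1.32, adjusted p = 7.25e-05). The 4 genes not called included *CCNE1*, *CCNE2* and *CDC25A*, which were named after their values were seen. By library, the median of the list relative to the scrambled mean was -0.59, -0.76 and -0.69 in *DUSP6* siRNA replicates 1 to 3, and that of the G2/M list was -0.47, -0.56 and -0.54. In bulk RNA a smaller share of cells in a phase of the cycle and less RNA per cell cannot be told apart.

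**Figure D5:**
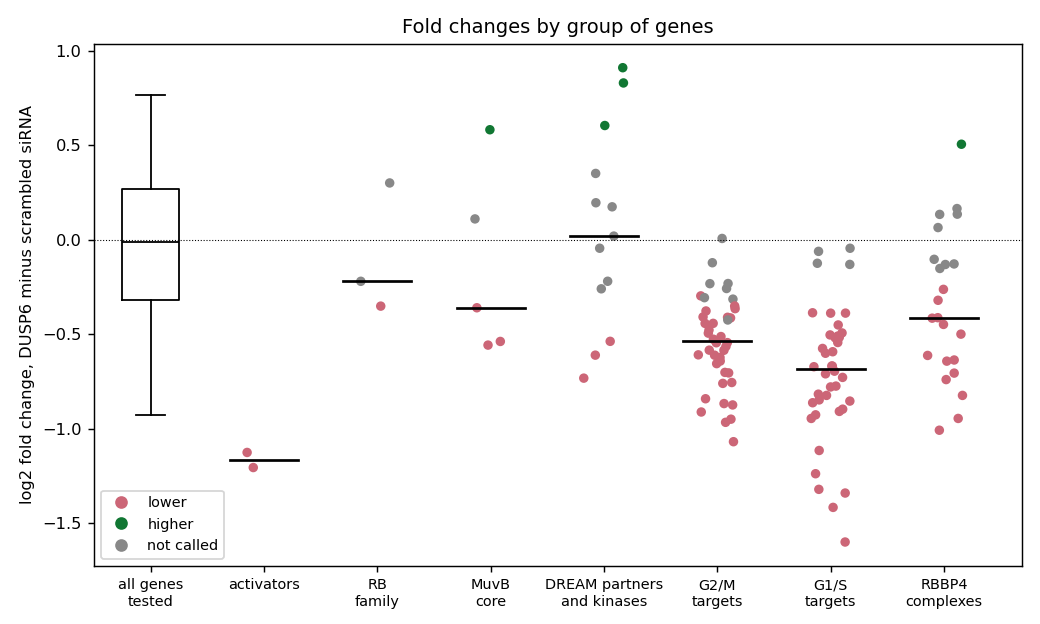
Log2 fold change (y axis) of each tested gene in the member groups and in 4 lists. Points are genes, colored red, green or grey for lower, higher or not called, and lines are medians. The box shows the quartiles of the 12862 genes tested, with whiskers from their 5th to 95th percentile. The medians are -0.53 for G2/M targets, -0.68 for G1/S targets and 0.02 for DREAM partners and kinases.

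Promoter letters were counted in the lists and in all tested genes. A CHR was in the window of 18 of the 36 G2/M genes with a window (50.0%) and in 9.64% of all 10127 tested genes with one. CCAAT was in 80.6% of the G2/M windows and in 35.8% of those of all tested genes. The E2F letters were in 41.2% of the 34 G1/S windows and in 4.59% of all. The E2F core was in 41.2% of the G1/S windows, in 27.8% of the G2/M windows and in 22.4% of all. Across all tested genes with a window, however, 29.2% of those with the E2F letters and 24.4% of those without were called lower, and for the CHR the shares were 26.5% and 24.4%. For the E2F core they were 27.4% and 23.8%, for CCAAT 26.0% and 23.9%, and for the forkhead letters 27.5% and 24.5%.

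RBBP4 also works in chromatin complexes outside of MuvB (PRC2, NuRD, CAF-1, SIN3 and NURF). Of 24 other genes of these complexes, 23 were tested, 14 (60.9%) were lower and 1 was higher, beside 24.7% lower and 19.7% higher over all genes tested. Their median was -0.41 on the log2 scale. The 4 largest changes were in the NuRD helicase *CHD3* (log2 fold change -1.01, limma adjusted p = 1.69e-04), the CAF-1 subunits *CHAF1B* (-0.95, adjusted p = 1.95e-04) and *CHAF1A* (-0.82, adjusted p = 2.99e-04), which are also on the G1/S list, and the NuRD subunit *MBD2* (-0.74, adjusted p = 0.00329). *MBD3*, named after its value was seen, was the 1 gene called higher (0.51, adjusted p = 0.0315), a count that fell to 0 without scrambled siRNA replicate 1 or *DUSP6* siRNA replicate 1 or 2 and rose to 2 without scrambled siRNA replicate 2. Under quantile normalization the median of the list was -0.18.

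The genes whose profile over the 6 libraries was nearest to that of a member were found by Euclidean distance on log2(value + 1) less the scrambled mean. Nearest to *FOXM1* were *SLC29A1* (distance 0.0724), *SYNJ2* (0.0751) and *SIRPA* (0.0984), and nearest to *MYBL2* were *PLEKHS1* (0.0876), *GDF11* (0.105) and *XRCC2* (0.185). For *RBL1* they included *PPM1G* (0.0607) and *CLCC1* (0.0758), and for *RBL2* they were *CCDC134* (0.0908), *OXR1* (0.0971) and *CDK5* (0.103). Since the libraries fall into 2 groups, this distance mostly reflects the size of the fold change, which was -1.15 for *SLC29A1* and -1.22 for *PLEKHS1*.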

How the data were processed

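RNA of 6 MDA-MB-453 libraries was analysed, 3 with *DUSP6* siRNA and 3 with scrambled siRNA, grouped by their titles. The authors aligned the reads to hg38 and assigned them to RefSeq genes with Rsubread at its default settings, which ignore strand, and deposited 1 normalized signal value per gene and library. The submitters' notes name edgeR. All values (100%, tolerance 0.001 reads) were whole reads times 1 step per library, and the factors in the steps equalled edgeR's TMM factors within 2.66e-15. The edgeR quasi-likelihood test on these reads called 2969 genes lower and 2771 higher, beside 3179 and 2540 by limma on the values.

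Values were tested as log2(value + 1) with limma 3.58.1 (trend) in R 4.3.3, after a filter at a mean value of 1. Both limma and edgeR 4.0.16 were tested on data simulated at the means and depths of this comparison, with 12862 genes. Each called 100% of 200 genes changed by 1 on the log2 scale in the right direction, with 7 and 6 unchanged genes called. The simulation gave all genes and both groups the same spread, whereas the real scrambled libraries were less alike than the *DUSP6* siRNA ones. It therefore does not give the share of genes found or wrongly called in these data. Intervals are at 95%. Positions, lengths and exon overlaps are from GENCODE v44 on GRCh38.

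The members and lists were chosen with earlier results of these data known. Named are all members, *DUSP6*, all DREAM partners and kinases, the 4 largest called changes of each other list, the 3 nearest profiles and overlapping neighbors. A few genes that this rule names are not reported here. Alternatives tried were pseudocount 0.1, all genes, a mean of at least 10, the median of ratios, quantiles, a replicate block, no trend, edgeR on the recovered reads and leaving out each library.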

Additional observations from a re-analysis of the deposited data

How the results depend on the processing

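All 10 members kept the sign of their fold change under the 14 alternatives, and *FOXM1*, *MYBL2*, *LIN9* and *LIN37* also kept their calls. *RB1* was called higher under 4 of them, so that 2 members instead of 1 were higher under the median of ratios, quantile normalization and edgeR. Leaving out a library moved the number of lower members to between 3 and 6, with *RBL1*, *LIN52* and *LIN54* lost without *DUSP6* siRNA replicate 1, and that of higher members to between 1 and 2. The number of genes of the RBBP4 complexes called higher went from 1 to 0 without a filter, where 22807 genes were tested. It went to 2 under quantile normalization and to between 0 and 2 without a library. The cause of these moves was not tested. The higher DREAM partners and kinases were between 1 and 4 without a library. Over all genes, 1639 instead of 2540 were higher with a mean of at least 10, where 9562 genes were tested. Without a library the number lay between 1574 and 3183, and it was lowest without *DUSP6* siRNA replicate 2. The replicate block, fitted although same-numbered libraries shared only a number (their deviations correlated at 0.01, 0.09 and -0.08), gave 3096 lower and 2495 higher genes and changed no call of a member. The differences in the ratios moved by less than the SD of the scrambled libraries, but those of *RB1* to *RBL2* (up to 0.67), *FOXM1* to *MYBL2* (-0.02 to 0.26) and *LIN52* to *LIN9* (0.06 to 0.32) moved by more than the SD of the *DUSP6* siRNA libraries, and *FOXM1* to *MYBL2* changed sign in 2 of 8 alternatives.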
